A study of Mus musculus with 6 samples.

Results

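The 9 genes described here encode transcription factors that set macrophage identity: Spi1, Maf, Cebpa, Cebpb, Irf8, Irf4, Irf5, Runx1 and Klf4. They were chosen by symbol among the 42256 genes of the count table, and all 9 passed the filter on low counts that left 12862 genes to test. They were measured in bone marrow-derived macrophages, obtained by growing marrow cells of adult male mice for 7 days with 20% L929-conditioned medium, a source of the macrophage growth factor CSF1, and 10% serum. The 3 KO cultures carry the genotype CDH11-/-, and the 3 WT cultures carry CDH11+/+; Cdh11 encodes the adhesion protein cadherin-11. Both genotypes have the mixed background 129S1/Sv x C57BL/6, and no culture was treated. The design text of the series mentions 4 CDH11-/- animals, while the sample labels tie no library to an animal; the p-values given therefore cover the spread of these libraries, part of which may be technical.

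Macrophage identity is set by a small set of factors that act together on shared enhancers. Spi1 encodes PU.1, the ETS factor that opens myeloid enhancers and drives genes such as the CSF1 receptor. Runx1 and the C/EBP factors act with it early in the lineage. IRF8 and IRF4 bind DNA weakly alone and are recruited by PU.1 to composite sites, MAF restrains self-renewal in mature macrophages, and KLF4 acts below IRF8 in monocyte differentiation.

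The 6 libraries held 27170943 to 37113689 counts. On the leading axis of a principal component analysis of 500 genes, which held 67.0% of their variance, KO libraries scored 7.11 to 28.4 and WT libraries -22.9 to -12.2. Cdh11 itself does not check the genotype labels, since KO libraries held 4 to 6 counts and WT libraries 6 to 11 (log2 fold change -0.55, SE 0.51; edgeR adjusted p = 0.423). In edgeR's quasi-likelihood fit 35.2% of the 12862 genes had an adjusted p under 0.05, 18.5% being higher and 16.8% lower in KO (2375 and 2157 genes, or 2933 and 1621 with upper-quartile scaling). All 10 macrophage markers passed the filter, and 1 rose and 4 fell, or 50% called beside 35.2% of all genes. Cd68 rose, while Csf1r, Lyz2, Cd14 and Ptprc fell. Only the call of Csf1r was kept on omitting any 1 library, with log2 fold changes of -0.81 to -0.58. The list's median log2 fold change was -0.20. The 10 summed to 20680 to 26400 CPM in KO libraries against 32220 to 34790 CPM in WT libraries. Markers of T and NK cells summed to at most 1.82 CPM. The 7 fibroblast genes summed to 2.25 to 2.79 CPM in KO libraries and 2.38 to 4.83 CPM in WT libraries, Dcn and Lum having no count. Of 8 erythroid and megakaryocyte markers, 3 passed the filter and 2 rose, or 66.7% called beside 35.2% of all genes. The 8 summed to 177 to 281.5 CPM in KO libraries and 167 to 243 CPM in WT libraries.

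Of the 9 factors, 4 fell in KO macrophages (Maf, Irf4, Irf8 and Runx1), 2 rose (Irf5 and Klf4), and 3 did not pass the test (Spi1, Cebpa and Cebpb). That is 6 of 9 called, beside 35.2% of all genes tested, and a median log2 fold change of -0.26 over the 9, beside 0.00 over all genes. KO and WT libraries did not overlap for the same 6 factors, as for 53.4% of all genes. The changes of Maf, Irf4 and Klf4 were close to 2-fold, and those of Irf8, Irf5 and Runx1 were smaller, with log2 fold changes of -0.30, 0.23 and -0.26. In bulk RNA, a change in how many cells express a factor and a change in the level per cell cannot be told apart.

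**Figure D1:**
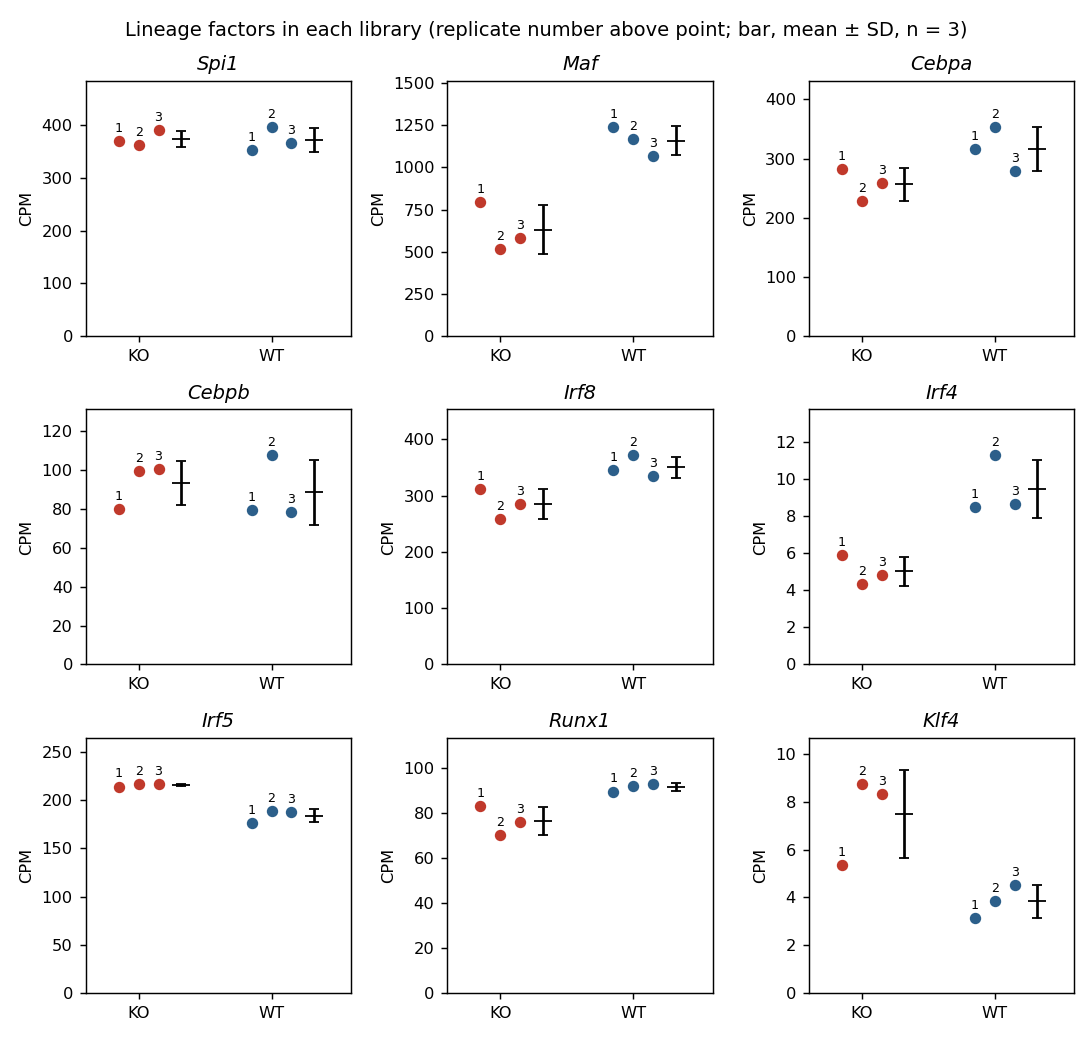
Normalised level of each of the 9 factors, in CPM on a linear axis from 0, in the KO and WT libraries. Points are libraries with their replicate number, and bars give the mean ± SD (n = 3). KO and WT points overlap for Spi1, Cebpa and Cebpb and are apart for the other 6 factors.

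Spi1 (ENSMUSG00000002111, GRCm38 chromosome 2, 91082390 to 91115756, plus strand), the PU.1 gene, was the most stable of the 9. It stood at 371, 362 and 391 CPM in KO 1 to KO 3, against 354, 397 and 366 CPM in WT 1 to WT 3. The genotypes overlapped fully, the lowest and the highest library both being WT. Spi1 averaged 375 ± 14.7 CPM in KO and 372 ± 22.3 CPM in WT (SD, n = 3 each), a log2 fold change of 0.01 with a 95% interval of -0.15 to 0.17 (edgeR adjusted p = 0.929).

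Of 20 genes known as PU.1 targets, all tested, 3 rose and 8 fell, or 55% called beside 35.2% of all genes. Mrc1, the mannose receptor, averaged 903 ± 72.6 CPM in KO and 1948 ± 121 CPM in WT, and Ncf1, a subunit of the phagocyte oxidase, averaged 272 ± 25.2 CPM in KO and 477 ± 43.3 CPM in WT. Csf2ra, a receptor chain for GM-CSF, rose by a log2 fold change of 0.67 (SE 0.12), and Itgb2, the common beta-2 integrin chain, by 0.57 (SE 0.15), a call lost on omitting WT 1, WT 2, KO 2 or KO 3. The list's median log2 fold change was -0.19. The 3 rises became 1 on omitting WT 1, WT 2, KO 2 or KO 3, and the 8 falls became 4 on omitting WT 1 and 5 on omitting WT 2 or KO 3.

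Runx1 (ENSMUSG00000022952, chromosome 16, 92601466 to 92826149, minus strand), which acts with PU.1 in blood cell specification, fell slightly. Its values were 82.8, 70.3 and 76.0 CPM in KO 1 to KO 3, against 89.4, 92.0 and 92.8 CPM in WT 1 to WT 3. All KO libraries lay below all WT libraries, KO 1 coming nearest to them. The means were 76.4 ± 6.28 CPM in KO and 91.4 ± 1.76 CPM in WT (log2 fold change -0.26, SE 0.07; edgeR adjusted p = 0.0265). This was the least stable of the 6 calls: it was lost on omitting any 1 library except KO 1, with adjusted p up to 0.0818, and with limma on the deposited signal (adjusted p = 0.0765). Its DNA-binding partner Cbfb averaged 117 ± 10.7 CPM in KO and 105 ± 5.54 CPM in WT and did not pass the test (edgeR adjusted p = 0.176).

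Among the C/EBP factors, Cebpa had a lower mean in KO without passing the threshold. Cebpa (ENSMUSG00000034957, chromosome 7, 35119293 to 35121928, plus strand), which directs progenitors to the myeloid fate, stood at 283, 228 and 258 CPM in KO 1 to KO 3, against 316, 353 and 279.5 CPM in WT 1 to WT 3. KO 1 lay just above WT 3, so the genotypes overlapped. The log2 fold change was -0.30 (SE 0.11; edgeR adjusted p = 0.0661), as large as that of Irf8, and the 95% interval ran from -0.56 to -0.05. Cebpa passed with DESeq2 (adjusted p = 0.0343), without a filter (adjusted p = 0.0424), on omitting WT 3 and on omitting KO 1, and its adjusted p ran from 0.0310 to 0.348 over all 15 alternatives.

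Cebpb (ENSMUSG00000056501, chromosome 2, 167688915 to 167690418, plus strand), which serves in mature and activated macrophages, did not differ in a fixed direction. It had 79.9, 99.3 and 100.3 CPM in KO 1 to KO 3, against 79.3, 107 and 78.4 CPM in WT 1 to WT 3. WT 2 was the highest library of all, and KO 1 lay with WT 1 and WT 3. The log2 fold change of 0.08 had a 95% interval of -0.28 to 0.43 (edgeR adjusted p = 0.708). Cebpb lies inside the span of the oppositely oriented gene Tmem189, which held 3802 to 6993 counts beside 2273 to 3019 for Cebpb and rose by a log2 fold change of 0.48, so counts may be shared between them if strand was not used.

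The third C/EBP factor of inflamed macrophages, Cebpd, moved more than either. It was at 26.8, 17.4 and 19.7 CPM in KO 1 to KO 3, against 51.9, 62.8 and 38.7 CPM in WT 1 to WT 3. No KO library reached the lowest WT library, and the log2 fold change was -1.26 (SE 0.23; edgeR adjusted p = 0.0103), a call kept on omitting any 1 library. Of 6 tested C/EBP family genes, 2 fell, Cebpd and Cebpg, the call of Cebpg being lost on omitting any 1 library except KO 1. Within a library, which needs no scaling, Cebpa had 3.54, 2.29 and 2.57 counts per Cebpb count in KO 1 to KO 3, against 3.98, 3.29 and 3.57 in WT 1 to WT 3. KO 1 lay among the WT values, between WT 2 and WT 3.

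Of 12 known C/EBP targets, 9 passed the filter, 2 rose and 1 fell, or 33.3% called beside 35.2% of all genes, with a median log2 fold change of 0.29. Pparg, the fatty acid-sensing nuclear receptor, averaged 71.6 ± 4.74 CPM in KO and 42.3 ± 5.67 CPM in WT. Msr1, a scavenger receptor, rose by a log2 fold change of 0.39, a call lost on omitting any 1 library except KO 1. Cd14, the lipopolysaccharide co-receptor, fell by 0.33 on the log2 scale, a call lost on omitting WT 1, WT 3, KO 1 or KO 3, with upper-quartile scaling and with library totals alone. Arg1, Il6 and Nos2, which are induced by cytokines or bacterial products, failed the filter in these untreated cultures.

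Maf showed one of the 2 firmest falls among the 9 factors. Maf (ENSMUSG00000055435, chromosome 8, 115682942 to 115707794, minus strand) encodes c-MAF, a bZIP factor of mature and resident-type macrophages. It stood at 792, 516 and 581 CPM in KO 1 to KO 3, against 1239.7, 1169 and 1067 CPM in WT 1 to WT 3. Even the highest KO library, KO 1, was well below the lowest WT library. Maf averaged 629.7 ± 145 CPM in KO and 1159 ± 86.8 CPM in WT, 1.84-fold lower in KO (log2 fold change -0.88, SE 0.16; edgeR adjusted p = 0.00924). It passed in 14 of 15 alternatives, leaving out each single library included, with log2 fold changes of -1.08 to -0.75; the exception was the fit on omitting WT 2 and KO 2 together (adjusted p = 0.0524).

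Relative to Spi1, which did not pass the test, Maf had a lower share of counts in every KO library. Maf had 2.13, 1.43 and 1.49 counts per Spi1 count in KO 1 to KO 3, against 3.50, 2.94 and 2.91 in WT 1 to WT 3. The highest KO ratio, in KO 1, lay below the lowest WT ratio, in WT 3. The small MAF genes Maff, Mafg and Mafk, whose products lack a transactivation domain, had log2 fold changes of -0.21, -0.20 and -0.27 and did not pass the test.

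Genes known as targets of MAF factors went in both directions. Of 15 on the list, 14 were tested, 3 rose and 5 fell, or 57.1% called beside 35.2% of all genes. The list's median log2 fold change was -0.34. F13a1, the coagulation factor XIII chain of resident-type macrophages, fell to 535 ± 237 CPM in KO, against 1474 ± 235 CPM in WT, a call lost on omitting WT 1, WT 2 or KO 3. Cd163, the haemoglobin scavenger receptor, fell to 1.61 ± 0.372 CPM in KO, against 3.58 ± 0.581 CPM in WT. Folr2, a folate receptor of resident-type macrophages, rose to 83.5 ± 27.2 CPM in KO, against 28.2 ± 10.0 CPM in WT, a call lost on omitting WT 1, KO 2 or KO 3, and Cd5l, an apoptosis inhibitor secreted by macrophages, rose to 84.2 ± 9.85 CPM in KO, against 46.9 ± 9.79 CPM in WT. The complement genes C1qa, C1qb and C1qc had log2 fold changes of -0.41, -0.25 and -0.26 and did not pass the test. The 3 rises became 1 on omitting WT 1, KO 2 or KO 3.

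**Figure D2:**
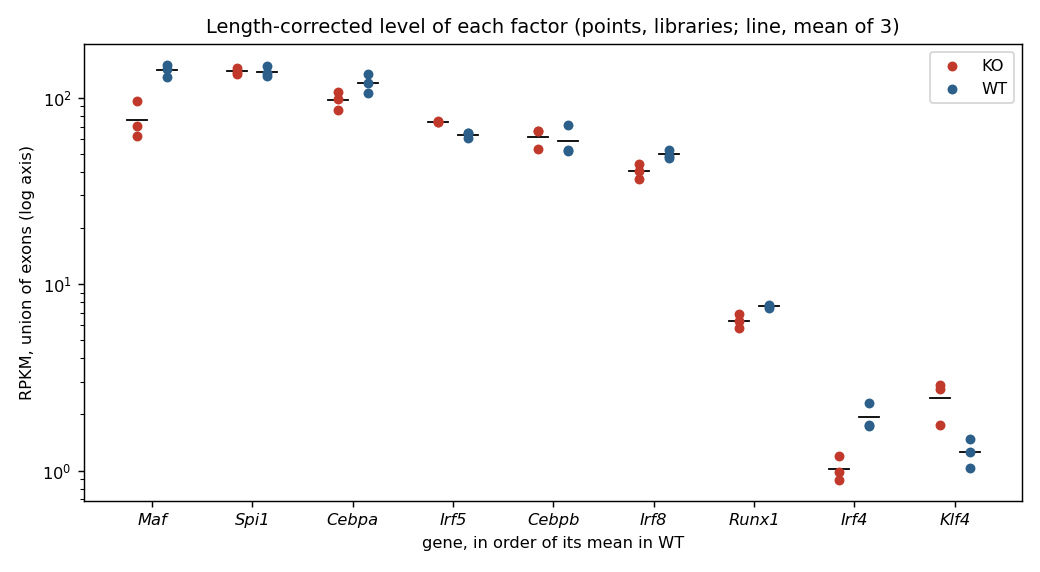
Length-corrected level of each factor, in RPKM on a log axis, in KO (left) and WT (right) libraries, genes ordered by their WT mean. Points are libraries and lines are means of 3. Maf lies near Irf5 in KO and near Spi1 in WT, and Klf4 lies above Irf4 in KO and below it in WT.

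Per length of exons, the factors spanned 2 orders of magnitude. In KO, Spi1 led with 139 ± 5.47 RPKM, followed by Cebpa (97.2), Maf (76.4), Irf5 (74.3), Cebpb (61.9), Irf8 (40.4), Runx1 (6.35), Klf4 (2.46) and Irf4 (1.02). In WT, Maf (141 ± 10.5) and Spi1 (138 ± 8.29) led, followed by Cebpa (120.0), Irf5 (63.4), Cebpb (58.8), Irf8 (49.7), Runx1 (7.60), Irf4 (1.93) and Klf4 (1.26). Libraries of neighbours overlapped in KO between Cebpa and Maf and between Maf and Irf5, and in WT between Maf and Spi1, Spi1 and Cebpa, Irf5 and Cebpb, and Cebpb and Irf8. With the longest transcript as length, Irf8 stood above Irf5 in WT (101 against 82.2 RPKM) and below it in KO (82.2 against 96.4 RPKM). With that length Irf8 also stood above Cebpb in both genotypes. Spi1 then stood just above Maf in WT (183.09 against 182.18 RPKM), and Maf just above Cebpa in KO (99.0 against 97.6 RPKM). The order of these genes thus rests on the transcript model. Klf4 above Irf4 in KO and below it in WT held with either length.

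Of the 3 interferon regulatory factors among the 9, Irf4 and Irf8 fell and Irf5 rose. To show what stands before their starts, the 250 bases upstream of each RefSeq start (GRCm38.p6, 5′ to 3′ on the plus strand, on which all 3 genes lie) are given, with matches to TATAAA and to GGGNGTG, the KLF motif, in capitals on either strand.
Irf4, chr13:30748983-30749232: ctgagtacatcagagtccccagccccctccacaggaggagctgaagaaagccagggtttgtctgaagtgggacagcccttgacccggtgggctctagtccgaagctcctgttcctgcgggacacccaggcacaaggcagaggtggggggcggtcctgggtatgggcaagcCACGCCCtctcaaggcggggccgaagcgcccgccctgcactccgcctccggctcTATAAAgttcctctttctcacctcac
Irf8, chr8:120736108-120736357: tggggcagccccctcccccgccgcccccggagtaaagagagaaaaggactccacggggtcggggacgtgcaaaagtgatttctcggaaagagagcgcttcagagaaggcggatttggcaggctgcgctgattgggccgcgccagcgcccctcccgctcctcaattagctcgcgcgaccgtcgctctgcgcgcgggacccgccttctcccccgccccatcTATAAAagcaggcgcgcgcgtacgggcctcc
Irf5, chr6:29526375-29526624: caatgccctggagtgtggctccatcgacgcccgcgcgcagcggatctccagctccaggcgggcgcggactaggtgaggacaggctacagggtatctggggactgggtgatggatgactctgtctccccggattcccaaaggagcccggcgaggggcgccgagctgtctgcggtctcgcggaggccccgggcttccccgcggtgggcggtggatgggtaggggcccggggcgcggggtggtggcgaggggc

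TATAAA begins 26 bases before the start of Irf4 and 31 bases before that of Irf8; Irf5 holds none. This motif was added after the sequences were seen, and 12.4% of 32851 promoter windows of the same length hold it on either strand. Cebpa, which was not called, holds it too, 30 bases before its start. The KLF motif matched once before Irf4 and before Cebpb, and 26.1% of windows hold it. A PU.1 motif (GAGGAAGT), the ETS-IRF composite, the interferon response motif, a C/EBP motif (TTGCNNAA), a RUNX motif (TGTGGT) and a core MAF site (TGCTGAC) had no match in the windows of the 7 factors with an entry in the RefSeq table, where 2.44, 2.30, 2.98, 9.56, 14.0 and 3.81% of all windows hold them; Spi1 and Maf were not searched. A match is a description of letters, not of binding.

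Irf4 (ENSMUSG00000021356, chromosome 13, 30749226 to 30766976, plus strand), a factor of alternative activation, dendritic cells and plasma cells, was low and fell. KO 1 to KO 3 had 5.90, 4.36 and 4.82 CPM, from 168, 127 and 145 counts, against 8.52, 11.3 and 8.65 CPM in WT 1 to WT 3, from 318, 299 and 251 counts. No KO library reached a WT library, and WT 2 was the highest. The means were 5.02 ± 0.790 CPM in KO and 9.49 ± 1.56 CPM in WT, 1.88-fold lower in KO (log2 fold change -0.91, SE 0.17; edgeR adjusted p = 0.00839). Irf4 was the only one of the 9 factors called in all 15 alternatives, with log2 fold changes of -1.05 to -0.68.

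Irf4 is also expressed in dendritic cells, B cells and plasma cells. Markers of dendritic cells summed to 2.07 to 3.22 CPM in KO libraries and 2.52 to 2.72 CPM in WT libraries over 8 genes. Of 8 B and plasma cell markers, Ighm made up most of a summed level of 50.4 to 77.4 CPM in KO and 106 to 131 CPM in WT, and it fell by 1.10 on the log2 scale; Cd79a and Ms4a1 were at 0 in all but 1 library each. The part of these transcripts in the fall of Irf4 was not tested.

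Among 11 known IRF4 targets, 7 passed the filter, 1 rose and 2 fell, or 42.9% called beside 35.2% of all genes. Ccl22, a chemokine for regulatory T cells, rose to 3.12 ± 0.575 CPM in KO, against 0.599 ± 0.136 CPM in WT, while Mrc1 fell as above. Clec10a, a galactose-binding lectin, fell to 45.6 ± 12.4 CPM in KO, against 88.9 ± 7.85 CPM in WT, a call lost on omitting WT 1 or KO 3. Kdm6b, the histone demethylase that acts upstream of IRF4 in alternative activation, fell by 0.52 on the log2 scale (SE 0.11; edgeR adjusted p = 0.0128). Without a filter the list had 1 fall.

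Irf8 (ENSMUSG00000041515, chromosome 8, 120736358 to 120756694, plus strand), which steers progenitors to monocytes and away from neutrophils, fell slightly. It stood at 312, 259 and 284 CPM in KO 1 to KO 3, against 345, 371 and 335 CPM in WT 1 to WT 3. The groups did not overlap, KO 1 lying nearest to the WT libraries. Gm20388 overlaps Irf8 on the same strand. It held 0 to 159 counts beside 7546 to 12884 for Irf8, so some counts may be shared. Irf8 averaged 285 ± 26.4 CPM in KO and 351 ± 18.8 CPM in WT (log2 fold change -0.30, SE 0.08; edgeR adjusted p = 0.0291). The call was lost on omitting WT 1, WT 2, KO 2 or KO 3, with adjusted p of 0.0740 to 0.0920, and the direction held in all 15 alternatives. Neutrophil markers summed to 92.1 to 196 CPM in KO and 132 to 220.5 CPM in WT, so the groups overlapped for that list. The 6 monocyte markers summed to 552 to 991 CPM in KO and 1472 to 1799 CPM in WT, so the groups were apart. Of these 6, 1 rose (Fn1) and 1 fell (F13a1, described above), or 33.3% called beside 35.2% of all genes. By its means given above, F13a1 made up most of the mean sum in each genotype and nearly all of the gap between them. The list's median log2 fold change was 0.03.

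Relative to its partner and its paralogs, Irf8 shifted within each library. Spi1 had 1.19, 1.40 and 1.37 counts per Irf8 count in KO 1 to KO 3, against 1.02, 1.07 and 1.09 in WT 1 to WT 3, and Irf5 had 0.688, 0.838 and 0.761 in KO against 0.511, 0.509 and 0.559 in WT. Irf4 had 0.0189, 0.0168 and 0.0169 counts per Irf8 count in KO, against 0.0247, 0.0304 and 0.0258 in WT. The KO and WT ratios were apart for all 3 pairs. Of 11 known IRF8 targets, 8 passed the filter, 1 rose (Cst3, cystatin C, log2 fold change 0.25) and 1 fell (Cybb, the catalytic oxidase subunit, -0.68). That is 25% called beside 35.2% of all genes. The call of Cst3 was lost on omitting any 1 library except KO 1 and that of Cybb on omitting WT 1, WT 2 or KO 3.

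Irf5 (ENSMUSG00000029771, chromosome 6, 29526625 to 29541871, plus strand), a factor of inflammatory cytokine genes below Toll-like receptors, rose by a small and even amount. It stood at 214, 217 and 216.5 CPM in KO 1 to KO 3, against 176, 189 and 187 CPM in WT 1 to WT 3. The KO libraries were almost identical and lay above all WT libraries. The means were 216 ± 1.42 CPM in KO and 184 ± 6.99 CPM in WT (log2 fold change 0.23, SE 0.05; edgeR adjusted p = 0.0177), a call lost on omitting WT 1 (adjusted p = 0.0734) or KO 3 (adjusted p = 0.0645). Its end overlaps the oppositely oriented gene Tnpo3 (2011 to 2887 counts, log2 fold change 0.13, not called), so some counts may be shared. Of 8 cytokine genes known as IRF5 targets only 3 passed the filter, and edgeR, DESeq2 and limma-voom called none of them, with 0 at an unadjusted p under 0.05 in each.

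Across the IRF family, 4 of 8 tested genes fell (Irf1, Irf4, Irf8 and Irf9), 1 rose (Irf5), and Irf2, Irf3 and Irf7 did not pass the test. Irf1 averaged 80.5 ± 10.6 CPM in KO and 134 ± 31.4 CPM in WT, a call lost on omitting KO 2 or KO 3, and the call of Irf9 was lost on omitting WT 1, WT 2, KO 2 or KO 3. Irf7, itself induced by interferon, had log2 fold change -0.74 with SE 0.41 (edgeR adjusted p = 0.202). Of 16 interferon-stimulated genes, 5 fell and 11 did not pass the test, 31.25% being called beside 35.2% of all genes. The list's median log2 fold change was -1.19. At an unadjusted edgeR p under 0.05, 11 fell and 0 rose. The 16 summed to 642, 402 and 533 CPM in KO 1 to KO 3, against 871, 2074 and 722 CPM in WT 1 to WT 3, so WT 2 stood far above the rest. WT 2 was also the highest library for Irf4, Irf8, Cebpa, Cebpb and Spi1. Cxcl10 and Ifit2, the 2 of the 5 called genes with the largest fold changes, fell by 2.55 and 1.90 on the log2 scale, calls lost on omitting any 1 KO library and, for Ifit2, on omitting WT 1 or WT 2. The 5 falls of that list became 0 on omitting KO 1, KO 2 or KO 3 and without a filter, 1 on omitting WT 1 and 2 on omitting WT 2, 9 on omitting WT 3, and 12 with DESeq2. On omitting WT 2, the log2 fold changes were -0.78 for Irf4, -0.26 for Irf8 and 0.24 for Irf5, so only that of Irf8 lost its call.

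**Figure D3:**
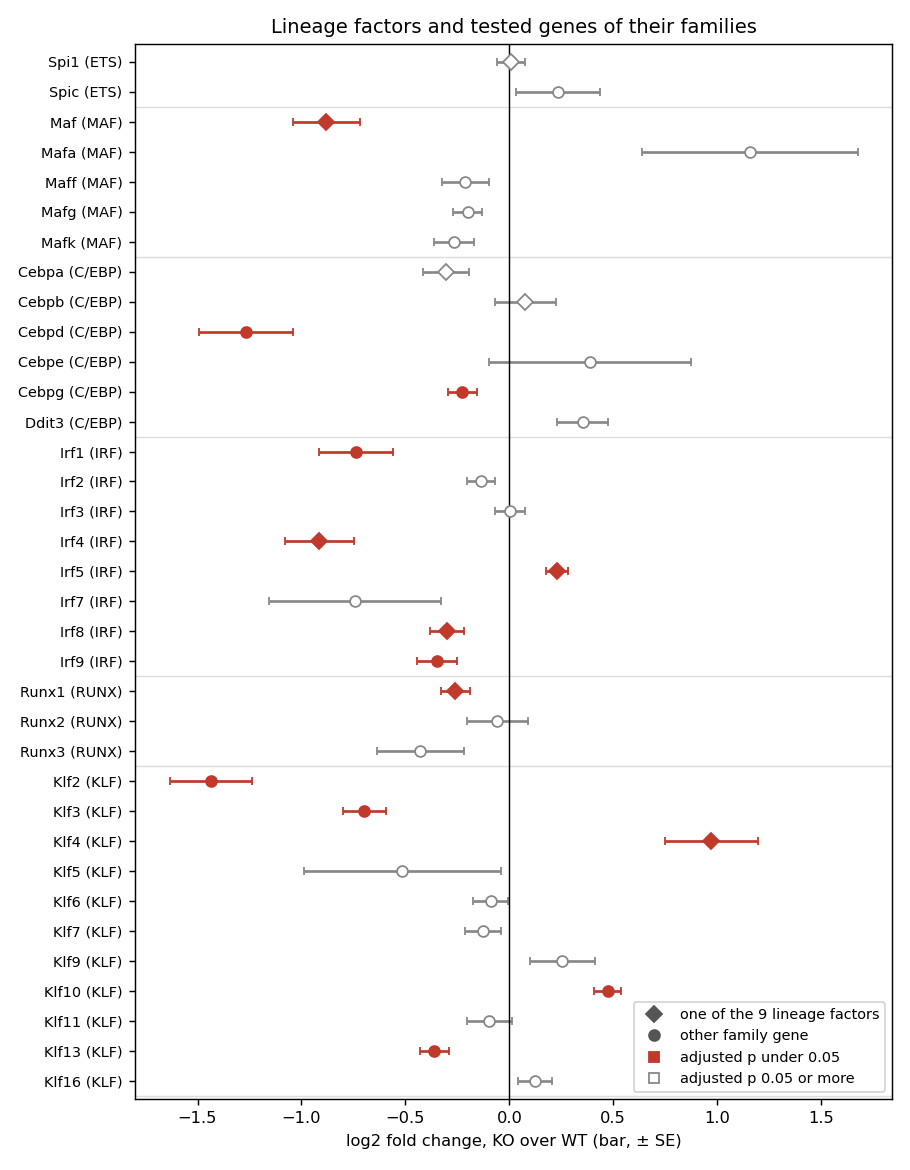
Log2 fold change, KO over WT, of the 9 factors (diamonds) and of tested genes of their families (circles); bars are ± SE from edgeR, and filled symbols have an adjusted p under 0.05. Irf5, Klf4 and Klf10 are the 3 filled symbols to the right of 0, and Klf2 is the filled symbol farthest to the left.

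Klf4 (ENSMUSG00000003032, chromosome 4, 55527143 to 55532466, minus strand), a zinc finger factor of monocyte differentiation and alternative activation, was low and rose. It had 5.37, 8.75 and 8.34 CPM in KO 1 to KO 3, from 153, 255 and 251 counts, against 3.13, 3.85 and 4.52 CPM in WT 1 to WT 3, from 117, 102 and 131 counts. KO 1 lay nearer to the WT libraries than to the other KO libraries. Klf4 averaged 7.49 ± 1.84 CPM in KO and 3.83 ± 0.691 CPM in WT, 1.96-fold higher in KO (log2 fold change 0.97, SE 0.22; edgeR adjusted p = 0.0163). The call was lost on omitting WT 1, WT 2 or KO 3, with adjusted p of 0.0524 to 0.0659, while the log2 fold change stayed at 0.84 or more in all 15 alternatives.

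Of 11 tested KLF genes, Klf4 and Klf10 rose, Klf2, Klf3 and Klf13 fell, and 6 did not pass the test. Klf2, a restraint on macrophage activation, was at 11.5, 9.30 and 11.3 CPM in KO 1 to KO 3, against 29.5, 36.2 and 21.4 CPM in WT 1 to WT 3. The genotypes were far apart, with a log2 fold change of -1.44 (SE 0.20; edgeR adjusted p = 0.00609). Klf3, a repressor, averaged 69.7 ± 10.6 CPM in KO and 113 ± 4.36 CPM in WT, and Klf10, a TGF-beta-induced factor, averaged 43.5 ± 2.93 CPM in KO and 31.3 ± 0.264 CPM in WT; all 3 calls were kept on omitting any 1 library. Of 6 known KLF4 targets 4 passed the filter, Pparg rising and Mrc1 falling, or 50% called beside 35.2% of all genes.

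Over the 32 other genes of the 6 families, 27 passed the filter, 1 rose and 7 fell, 29.6% being called beside 35.2% of all genes. The 7 falls became 4 on omitting KO 2 or KO 3, and the 1 rise became 3 on omitting KO 1 and 2 with several other settings. Of 20 partners and regulators of these factors, 19 were tested, 1 rose and 7 fell, or 42.1% called beside 35.2% of all genes. Tle3, a corepressor, averaged 52.7 ± 3.13 CPM in KO and 92.6 ± 5.66 CPM in WT, and Cbfa2t3, a corepressor of the ETO family, averaged 4.45 ± 1.51 CPM in KO and 8.82 ± 1.07 CPM in WT, a call lost on omitting WT 1, WT 2, WT 3 or KO 3. Crebbp, a histone acetyltransferase, fell by 0.47 on the log2 scale, a call lost on omitting WT 1 or KO 3, and Jund, an AP-1 subunit, rose by a log2 fold change of 0.37. The 7 falls became 4 on omitting WT 1 or WT 2 and 3 on omitting KO 3.

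Of 31 other transcription factors of macrophages, all tested, 6 rose and 11 fell, or 54.8% called beside 35.2% of all genes. Nr1h3, the sterol receptor LXR alpha, averaged 45.9 ± 1.56 CPM in KO and 20.3 ± 1.77 CPM in WT, and Egr2, a factor of alternative activation, averaged 44.4 ± 7.69 CPM in KO and 23.5 ± 3.38 CPM in WT. Pparg rose as above, and Atf3, a stress-induced repressor, rose by a log2 fold change of 0.59 (SE 0.08). Tfec, a macrophage member of the MITF family, averaged 27.9 ± 4.66 CPM in KO and 47.3 ± 4.86 CPM in WT, and Fli1, an ETS factor, 82.9 ± 10.8 CPM in KO and 126 ± 5.28 CPM in WT. Rxra and Ikzf1 fell by 0.53 and 0.50 on the log2 scale, calls lost on omitting WT 1, WT 2, KO 2 or KO 3. The 11 falls became 5 on omitting WT 1 or WT 2 and 6 on omitting KO 2 or KO 3.

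Factors of other blood lineages were mostly near the limit of detection. Of 26, only 12 passed the filter, and 0 rose and 3 fell, or 25% called beside 35.2% of all genes. These 3 were Lyl1 (87.0 ± 11.5 CPM in KO, 145 ± 10.8 CPM in WT), Tcf4 (112 ± 13.4 CPM in KO, 178 ± 5.92 CPM in WT) and Lmo2 (188 ± 14.1 CPM in KO, 255 ± 21.8 CPM in WT), and all 3 calls were kept on omitting any 1 library. Gata2, a factor of progenitors and mast cells, averaged 1.06 ± 0.122 CPM in KO and 0.541 ± 0.228 CPM in WT and did not pass (edgeR adjusted p = 0.0522). The list had 1 rise with upper-quartile scaling, library totals alone, limma-voom, or on omitting WT 2 or KO 1.

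Maf and Irf8 lie on the chromosome of the targeted gene. On chromosome 8, the gap between the bodies of Cdh11 and Maf is 12.9 Mb, and that between Cdh11 and Irf8 is 17.95 Mb. Of 295 tested genes that start within 20 Mb of the start of Cdh11, 70 rose and 49 fell, or 40.3%, against 34.8% farther away on chromosome 8 and 35.1% on other chromosomes. Within 1 Mb of Maf 1 other gene was tested and not called, and within 1 Mb of Irf8 2 of 19 rose and 3 fell. The strain background is mixed, and which strain's alleles each library carries near Cdh11 was not analysed here. For Maf and Irf8, the loss of Cdh11 and linked strain differences therefore cannot be told apart. The same holds for Ccl22, Lyl1 and Cbfa2t3, whose starts lie -7.89, -17.93 and 19.99 Mb from that of Cdh11. Other called genes named here, among them Mcm5, Klf2 and Jund, lie farther away on this chromosome.

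**Figure D4:**
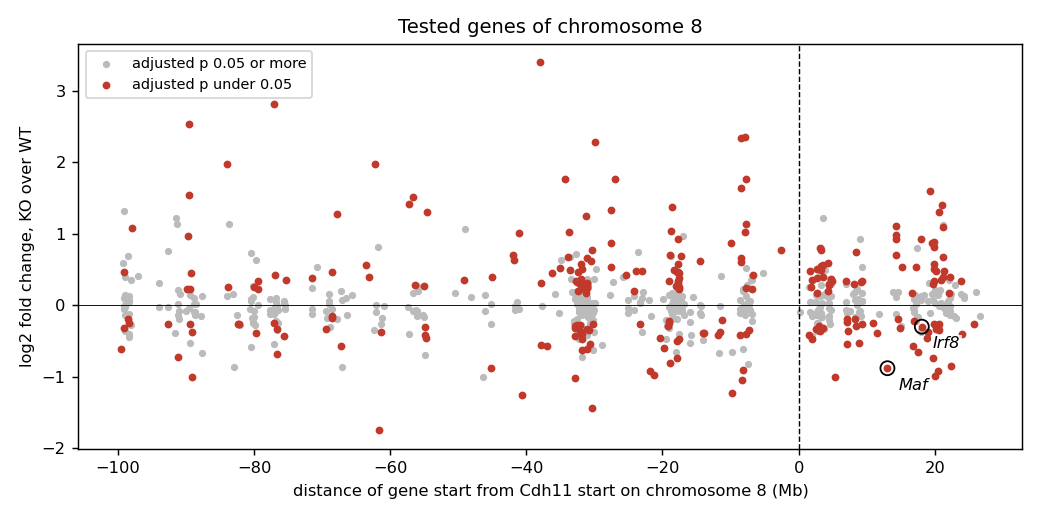
Log2 fold change, KO over WT, of tested genes of chromosome 8 against the distance of their start from that of Cdh11, in Mb; red points have an adjusted p under 0.05 in edgeR. Maf and Irf8, circled, lie at 13.05 and 18.1 Mb on this axis, among called genes of both directions.

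The 6 called factors ordered the KO libraries as most called genes did, although Irf5 barely differed among them (214, 217 and 216.5 CPM). For all 6, KO 1 was the KO library nearest to the WT mean and KO 2 the farthest, on the log2 scale; of all 4532 called genes this held for 75.4% with KO 1 as nearest and 77.3% with KO 2 as farthest. Cell-cycle genes followed the same order, summing to 950.0, 1496 and 1079 CPM in KO 1 to KO 3, against 532, 417 and 744 CPM in WT 1 to WT 3. In that list of 12, 5 rose and 0 fell, or 41.7% called beside 35.2% of all genes, with a median log2 fold change of 1.11. At an unadjusted edgeR p under 0.05, 11 rose and 0 fell. The called genes included Ccne1, cyclin E1 (log2 fold change 1.39), and Mcm5, a replication helicase subunit (1.33, a call lost on omitting WT 1, KO 2 or KO 3). The 5 rises became 2 on omitting WT 1 or without a filter, 3 on omitting KO 2 or KO 3, 12 on omitting WT 3, 9 with DESeq2 and 8 with limma on the deposited signal. The part of proliferation in the levels of the 9 factors was not tested.

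Genes with the pattern nearest to each called factor over the 6 libraries, by the root mean square difference of centred log2 CPM among 11501 named genes, were as follows. Maf was nearest to Rhobtb1 and Hacd4 (0.0421 and 0.0484), and Irf4 to Pstpip2 and Tagap (0.0502 and 0.0636). Klf4 was nearest to Rhov and Cdk18 (0.0599 and 0.0711). Irf8 was nearest to Zbtb1 and Cramp1l, Irf5 to Rnf121 and Psme3, and Runx1 to Ylpm1 and Gmip, at 0.0177 to 0.0231. Rhobtb1 averaged 24.6 CPM in KO and 44.0 CPM in WT, and Cdk18 averaged 213 CPM in KO and 110.1 CPM in WT.

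**Figure D5:**
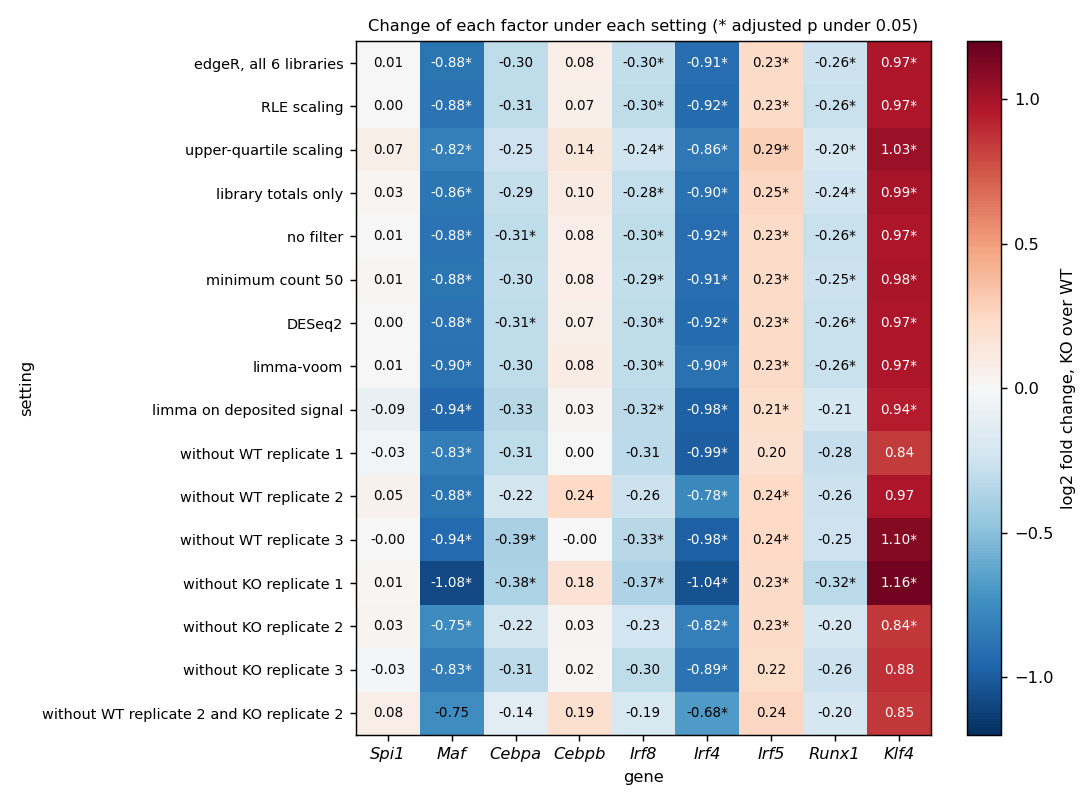
Log2 fold change, KO over WT, of each factor under the fit with all 6 libraries and 15 alternatives; colour gives the value and an asterisk an adjusted p under 0.05. Irf4 keeps its asterisk in every row, Maf in all but the last, and Runx1 loses it in most rows that leave out a library.

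Across settings, Maf and Irf4 separated from the other called factors. Leaving out single libraries in turn, Maf and Irf4 passed in 6 of 6 fits, Irf5 in 4, Klf4 in 3, Irf8 in 2 and Runx1 in 1. The 4 falls became 2 on omitting WT 1, WT 2, KO 2 or KO 3, and the 2 rises became 0 on omitting WT 1 or KO 3 and 1 on omitting WT 2. Of the 6 called factors, all kept the sign of their change in all 15 alternatives.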

How the data were processed

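RNA was sequenced from directional libraries of 3 KO and 3 WT macrophage cultures. The authors deposited whole-number counts per Ensembl gene and a normalized signal per gene. Counts over signal gave no single factor per library: in 56.9 to 72.0% of tested genes it was over 1% off the library's median. The tools DRAGEN and DESeq2 and the build mm10 are named, per the submitters' processing notes, with no version or role stated. The strand setting of the counting is not given in the sources used here. Symbols and coordinates come from GENCODE M21 (GRCm38, the assembly called mm10), which matched 42170 of 42256 genes.

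Genes were kept by filterByExpr (minimum count 10), scaled by TMM and tested with edgeR 4.0.16 in R 4.3.3 (robust quasi-likelihood F test, two-sided, genotype as the one term). P-values were adjusted by the Benjamini-Hochberg method over all 12862 genes tested, with a threshold of 0.05. CPM are counts scaled by the TMM-adjusted library total, and RPKM divide them by the union of annotated exons. Log2 CPM used a prior count of 2. No pair of replicates was alike within sampling noise (chi-square over its degrees of freedom 12.6 to 52.5). The fit was tested on simulated data. Alternatives were DESeq2 1.42.0, limma-voom and limma on log2(deposited signal + 1) (limma 3.58.1), other scalings and filters, and leaving out libraries.

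The 9 factors and the gene lists around them were chosen with earlier results of these data known. Genes named beside the 9 are, per list of factors, up to 4 called rises and 4 called falls of the largest fold change, and, per list of targets, interferon-stimulated genes or cell-cycle genes, up to 2 of each. For each called factor the 2 genes with the nearest pattern are named. Others were chosen after their values were seen. Some genes of these lists are not reported here.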

Additional observations from a re-analysis of the deposited data

How the results depend on the processing

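No paired analysis was possible because the labels give no replicate numbers that the genotypes share. With 1 library left out, called genes numbered 1037 to 2791 higher and 942 to 2665 lower in KO, called factors 0 to 2 higher and 2 to 5 lower, and called genes of the surrounding lists 16 to 37 higher and 25 to 55 lower. Without WT 2 and KO 2 together, added after the data were seen, these numbers were 710 and 668, 0 and 1, and 23 and 22. Such fits have fewer libraries to test with. Spi1 and Cebpb, which were not called, changed sign: the log2 fold change of Spi1 was -0.0902 with limma on the deposited signal, -0.02936 to 0.05254 with 1 library left out and 0.0812 without WT 2 and KO 2, and that of Cebpb was -0.003116 to 0.2353 with 1 library left out; the cause was not tested. No scaling moved the median log2 fold change of all genes by more than 0.0583. RPKM of Spi1, Maf, Irf8, Irf5 and Runx1 moved by more than 1 SD with the longest transcript as length.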

Other observations

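Of 6 osteoclast genes 5 passed the filter and 4 rose in KO, or 80% called beside 35.2% of all genes. These 4 were Ctsk, Ocstamp, Dcstamp and Mmp9. The call of Ctsk was lost on omitting WT 1 or WT 2, and that of Dcstamp on omitting KO 2. The 6 summed to 118 to 223 CPM in KO libraries against 44.0 to 66.2 CPM in WT libraries. Calcr had no count in any library. Of 6 progenitor genes, all tested, 1 rose, or 16.7% beside 35.2% of all genes (Kit, log2 fold change 1.81, a call lost when WT 1, WT 2 or KO 3 was left out), with a summed level of 7.48 to 9.10 CPM in KO libraries against 4.90 to 7.25 CPM in WT libraries. The part of such cells in the levels of the 9 factors was not tested.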
